A study of Rattus with 12 samples.

Results

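The transcripts of 10 neuropeptide genes known from the cerebral cortex were followed through 12 rat neuron and glia cultures and 3 fentanyl conditions. The genes, *Sst*, *Npy*, *Vip*, *Cck*, *Tac1*, *Crh*, *Nts*, *Cort*, *Gal* and *Pthlh*, were taken by symbol from a table of 17337 genes, and all 10 were found there. They leave out the opioid peptide precursors. In the fit with 1 factor of unwanted variation, no member passed the test in any comparison. Neither did any other of the 12271 genes tested. At the same thresholds, the study reported differentially expressed genes in each comparison, without stating its number of such factors. With 4 factors here, 39 genes were called in high dose against untreated, 113 in high against low dose and 0 in low against untreated. None of them was a member. With 1 neuron-poor culture left out, each member varied more between groups of cultures with neighbouring letters than between fentanyl doses. By value, *Npy*, *Crh*, *Nts* and *Pthlh* were lower at the high than at the low dose in each of the 4 groups of letters, as were 11.1% of all genes, and in cultures B and C this rested on 2 and 1 counts for *Crh* and on 7 and 9 counts in libraries of unequal size for *Pthlh*.

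The cultures were made from primary Sprague Dawley rat cells bought from suppliers, namely cortical neurons, astrocytes and oligodendrocyte precursor cells (OPCs), and were exposed for 4 days to fentanyl, a synthetic opioid that acts on the μ opioid receptor. The 3 conditions were untreated (0 μM, medium added without the drug), low dose (0.01 μM) and high dose (10 μM), with 4 cultures in each, and every culture was seeded with the same 3 kinds of cells. Each culture carries a letter: A, G, M and P were untreated, B, H, N and Q were given 0.01 μM, and C, I, O and R were given 10 μM. Neighbouring letters form sets that span the doses (A with B and C, G with H and I, M with N and O, P with Q and R), which neither the labels nor the methods name as a pairing or a batch. Nothing says that the cultures of a condition came from separate animals, so p-values measure only the spread between these cultures. RNA was read from whole cultures, in which fewer cells of a type and less RNA per cell cannot be told apart.

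Neuropeptides are made as longer precursor proteins, cut by convertases, packed into dense-core vesicles and released upon strong or repeated firing to act on G-protein coupled receptors. In the cortex, somatostatin, neuropeptide Y, vasoactive intestinal peptide and cholecystokinin are known as marks of GABAergic interneurons, and cholecystokinin is also transcribed by many glutamatergic neurons. The transcript level of several of these precursors is known to follow neuronal activity.

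Between 12059872 and 24813893 reads were counted per culture, and 12271 genes had enough counts to be tested, all 10 neuropeptide genes among them. Levels are given as CPM, the counts of a gene scaled to a common library size with the TMM method of edgeR. Of the replicate pairs in a condition, none was alike enough to be a library deposited again. Untreated culture G stood apart from the other 11. The neuronal nuclear gene *Rbfox3* had 20 counts in G and 714 to 2019 in the others, *Slc17a7*, the vesicular transporter of cortical glutamatergic neurons, stood at 15.5 CPM against 646 to 1272, and *Gad1*, which makes GABA, at 4.28 CPM against 25.3 to 79.1. The summed level of 14 neuron markers was 695 CPM in G and 3989 to 8108 CPM in the others. Markers of fibroblasts and mural cells summed to 3069 CPM in G and 4704 CPM in low dose culture N, against 422 to 1221 CPM in the remaining cultures. Untreated means are therefore given with and without G, and the fitted changes against untreated without G where they differed most.

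*Sst* encodes somatostatin, an inhibitory peptide of dendrite-targeting interneurons. It was measured at 19.0, 1.10, 2.81 and 4.66 CPM in untreated cultures A, G, M and P, and at 16.7, 8.28, 7.31 and 7.50 CPM in low dose cultures B, H, N and Q. High dose cultures C, I, O and R held 15.6, 10.8, 9.28 and 8.27 CPM. The A-B-C set was the highest at every dose, and the 3 conditions overlapped. The mean was 6.89 ± 8.20 CPM (SD, n = 4) untreated, or 8.82 ± 8.86 CPM (SD, n = 3) without G, 9.95 ± 4.52 CPM (SD, n = 4) at the low dose and 10.98 ± 3.24 CPM (SD, n = 4) at the high dose.

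*Cort* encodes cortistatin, a relative of somatostatin that binds the same receptors. It gave few reads, with 3, 1, 8 and 41 counts in A, G, M and P, 0, 28, 17 and 24 in B, H, N and Q, and 1, 7, 1 and 20 in C, I, O and R. In 5 of the 12 cultures it was at or below 3 counts, the limit that a count of 0 allows. In CPM these counts were 0.18, 0.065, 0.55 and 3.41 untreated, 0, 1.73, 1.11 and 1.65 at the low dose, and 0.059, 0.35, 0.064 and 0.83 at the high dose. All 3 cultures of the A-B-C set, where *Sst* was highest, were among those 5, and the highest values of the untreated and the high dose condition lay in the P-Q-R set. The mean was 1.05 ± 1.59 CPM (SD, n = 4) untreated, or 1.38 ± 1.77 CPM (SD, n = 3) without G, 1.12 ± 0.80 CPM (SD, n = 4) at the low dose and 0.33 ± 0.36 CPM (SD, n = 4) at the high dose.

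*Npy* encodes neuropeptide Y, an inhibitory peptide of interneurons that dampens network excitation. Untreated cultures A, G, M and P held 13.1, 261, 15.5 and 52.0 CPM, low dose cultures B, H, N and Q 10.9, 28.7, 21.4 and 53.2 CPM, and high dose cultures C, I, O and R 9.48, 15.6, 15.6 and 36.1 CPM. Culture G, with the fewest neuron marker reads, was the highest of all 12. Among the other cultures the P-Q-R set was the highest at each dose and the A-B-C set the lowest. The untreated mean of 85.4 ± 118 CPM (SD, n = 4) became 26.9 ± 21.8 CPM (SD, n = 3) without G, beside 28.5 ± 18.0 CPM (SD, n = 4) at the low dose and 19.2 ± 11.6 CPM (SD, n = 4) at the high dose.

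*Vip* encodes vasoactive intestinal peptide, a mark of interneurons that inhibit other interneurons. Its level was 4.90, 0, 16.3 and 1.66 CPM in A, G, M and P, 8.62, 19.7, 11.9 and 1.24 CPM in B, H, N and Q, and 4.09, 22.0, 18.2 and 1.24 CPM in C, I, O and R. No *Vip* read was counted in G, which allows up to 3 counts at this depth. The P-Q-R set was low throughout, while cultures H, I, M, N and O were all above 11 CPM. The mean was 5.70 ± 7.32 CPM (SD, n = 4) untreated, or 7.60 ± 7.66 CPM (SD, n = 3) without G, 10.4 ± 7.66 CPM (SD, n = 4) at the low dose and 11.4 ± 10.3 CPM (SD, n = 4) at the high dose.

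*Cck* encodes cholecystokinin and was the gene of the 10 with the most even level outside G. It stood at 55.4, 0.58, 97.0 and 46.7 CPM in A, G, M and P, at 45.2, 61.1, 84.5 and 62.6 CPM in B, H, N and Q, and at 48.5, 48.5, 61.8 and 40.8 CPM in C, I, O and R. Without G its log2(CPM + 1) spanned 1.23 over the 11 cultures, the narrowest range of the 10 genes, while *Vip* spanned 3.36, the widest. *Cck* had 9 counts in G and 561 or more in each other culture. The mean was 49.9 ± 39.6 CPM (SD, n = 4) untreated, or 66.3 ± 26.9 CPM (SD, n = 3) without G, 63.3 ± 16.2 CPM (SD, n = 4) at the low dose and 49.9 ± 8.75 CPM (SD, n = 4) at the high dose.

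*Crh* encodes corticotropin-releasing hormone, a stress peptide that cortical interneurons also make. It had 0, 2, 8 and 91 counts in A, G, M and P, 2, 16, 47 and 68 in B, H, N and Q, and 1, 10, 14 and 24 in C, I, O and R. In 4 cultures, namely A, B, C and G, it was at or below 3 counts. In CPM the values were 0, 0.13, 0.55 and 7.57 untreated, 0.15, 0.99, 3.07 and 4.68 at the low dose, and 0.059, 0.50, 0.90 and 0.99 at the high dose. At each dose the P-Q-R set was the highest. The mean was 2.06 ± 3.68 CPM (SD, n = 4) untreated, where culture P alone was above 1 CPM, or 2.71 ± 4.22 CPM (SD, n = 3) without G, 2.22 ± 2.04 CPM (SD, n = 4) at the low dose and 0.61 ± 0.43 CPM (SD, n = 4) at the high dose.

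*Tac1* encodes substance P and neurokinin A, and *Nts* encodes neurotensin, which acts on its own receptors and is bound by sortilin. *Tac1* had 7, 2, 7 and 16 counts in A, G, M and P, 8, 15, 11 and 43 in B, H, N and Q, and 10, 21, 9 and 15 in C, I, O and R. *Nts* had 15, 1, 12 and 4 counts in A, G, M and P, 37, 14, 8 and 11 in B, H, N and Q, and 14, 15, 6 and 15 in C, I, O and R. At the low dose one culture stood above the rest for each gene, Q for *Tac1* with 2.96 CPM against 0.62 to 0.93 CPM and B for *Nts* with 2.85 CPM against 0.52 to 0.86 CPM. The *Tac1* mean was 0.59 ± 0.52 CPM untreated, 1.30 ± 1.11 CPM at the low dose and 0.71 ± 0.23 CPM at the high dose (SD, n = 4 each). The *Nts* mean was 0.53 ± 0.39 CPM untreated, 1.25 ± 1.08 CPM at the low dose and 0.65 ± 0.19 CPM at the high dose (SD, n = 4 each). Without G the untreated means were 0.74 ± 0.51 CPM for *Tac1* and 0.68 ± 0.30 CPM for *Nts* (SD, n = 3 each). Culture B also held 2033 CPM of *Rn5-8s*, the 5.8S ribosomal RNA, against 49.0 to 126.6 CPM in the other 11, and its part in the *Nts* value was not tested.

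*Gal* encodes galanin, an inhibitory peptide better known from brainstem and hypothalamic neurons. Its level was 0.41, 28.6, 0.55 and 8.90 CPM in A, G, M and P, 0.54, 1.54, 0.91 and 9.49 CPM in B, H, N and Q, and 0.30, 0.80, 1.10 and 10.5 CPM in C, I, O and R. Cultures P, Q and R were high whatever the dose, and the only other high culture was G. The mean was 9.62 ± 13.3 CPM (SD, n = 4) untreated, or 3.29 ± 4.86 CPM (SD, n = 3) without G, 3.12 ± 4.27 CPM (SD, n = 4) at the low dose and 3.17 ± 4.90 CPM (SD, n = 4) at the high dose.

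*Pthlh* encodes parathyroid hormone-like hormone, a secreted peptide of many tissues that acts on the parathyroid hormone receptor *Pth1r*. It had 9, 16, 21 and 3 counts in A, G, M and P, 7, 48, 21 and 10 in B, H, N and Q, and 9, 26, 18 and 7 in C, I, O and R. Its level was highest in culture H with 2.97 CPM and lowest in culture P with 0.25 CPM, and in G, at 1.04 CPM, it lay between the other untreated cultures. The mean was 0.81 ± 0.53 CPM untreated, 1.39 ± 1.11 CPM at the low dose and 0.82 ± 0.49 CPM at the high dose (SD, n = 4 each), and 0.74 ± 0.62 CPM (SD, n = 3) untreated without G. The study listed *Nts* and *Pthlh* from these cultures among genes downregulated in the high dose condition, so their values here are not independent evidence of a direction. In the fit made here, *Nts* was at 0.14 ± 0.53 (SE) and *Pthlh* at 0.19 ± 0.70 at the high dose against untreated, not below 0. Against the low dose they were at -0.82 ± 0.52 and -0.81 ± 0.67.

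**Figure D1:**
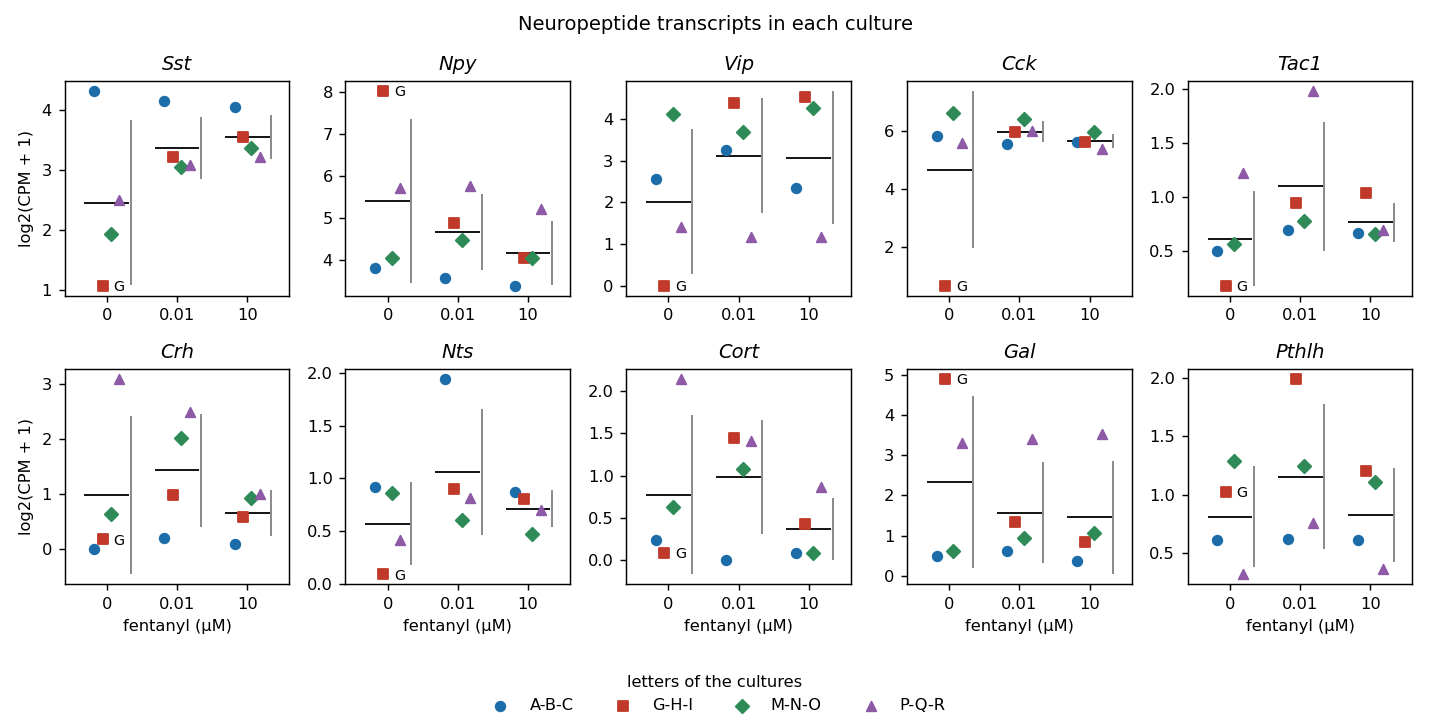
Level of the 10 neuropeptide genes in each of the 12 cultures, as log2(CPM + 1) against the fentanyl concentration (0, 0.01 and 10 μM); the vertical scale differs between panels. Colour and shape mark the letter set, the horizontal line the mean and the vertical line the SD of 4 cultures; outside culture G the triangles of P-Q-R are highest for *Gal* and lowest for *Vip*, and the circles of A-B-C are highest for *Sst* at each dose.

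The letter sets held more of the variation than the doses for each of the 10 genes. Over the 11 cultures without G, the sets held 44.2% (*Nts*) to 98.2% (*Gal*) of the sum of squares of log2(CPM + 1), and the doses held 0.201% (*Gal*) to 20.6% (*Cort*). Each share was computed on its own and leaves out the variation that neither sets nor doses hold, so the shares need not add up to 100%. Sets and doses are also not fully crossed without G. For *Vip* the sets held 96.0% and the doses 2.07%, for *Npy* 89.0% and 7.63%, and for *Pthlh* 82.2% and 14.2%. The median of the 10 genes was 67.9% for the sets and 14.1% for the doses, beside 75.3% and 7.96% over all genes tested. By these medians the sets held a smaller share for the peptide genes than over all genes, and the doses a larger one. Groups without any effect also hold a share of the variation by chance, and 4 sets hold more than 3 doses. *Nts*, *Cort*, *Tac1*, *Pthlh* and *Crh* lay at percentiles 2.1 to 6.3 of mean level among the genes tested. The part of counting error in their shares was not tested. The shares are descriptions and show no effect of dose.

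**Figure D2:**
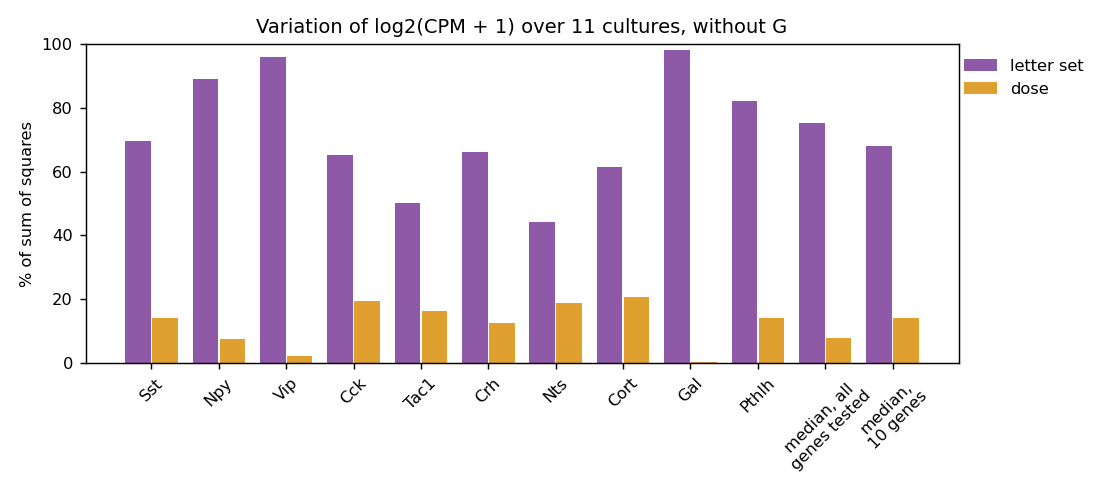
Share of the variation between 11 cultures (without G) that lay between letter sets and between doses, as % of the sum of squares of log2(CPM + 1) for each gene and as the median over all genes tested and over the 10 genes. For every gene the bar of the letter sets is the taller one, and *Gal* has the largest contrast, with 98.2% between sets and 0.201% between doses.

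Each set had its own combination of peptides. In A-B-C, *Sst* was at 17.1 ± 1.75 CPM (SD, n = 3), against set means of 6.47 to 9.53 CPM elsewhere, *Npy* at 11.2 ± 1.82 CPM was the lowest, and *Crh* and *Cort* were each at a mean below 0.1 CPM. In P-Q-R, *Gal* was at 9.63 ± 0.81 CPM (SD, n = 3) against 0.42 to 1.17 CPM in the other sets, *Npy* at 47.1 ± 9.55 CPM against 11.2 to 22.1 CPM, and *Vip* at 1.38 ± 0.24 CPM against 5.87 to 20.9 CPM. In G-H-I (cultures H and I) and M-N-O, *Vip* was at means of 20.9 and 15.4 CPM, and *Pthlh* at 2.13 and 1.32 CPM, against 0.53 CPM in A-B-C and 0.41 CPM in P-Q-R.

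Markers of the cell types moved with the same sets. In P-Q-R, 11 astrocyte markers summed to 9312 to 13041 CPM against 2624 to 5661 CPM in the other sets without G, and 12 microglia markers to 171 to 198 CPM against 494 to 1720 CPM. In A-B-C, 14 neuron markers summed to 7178 to 8108 CPM against 3989 to 5974 CPM elsewhere without G, 12 oligodendrocyte markers to 3076 to 4670 CPM against 10141 to 26495 CPM, and 8 OPC markers to 372 to 491 CPM against 1043 to 1854 CPM. The sum of 22 tested GABAergic interneuron genes was 292 to 326 CPM in A-B-C and 427 to 528 CPM in the other sets without G. The part of these cell type differences in the peptide levels was not tested. In G the same interneuron list summed to 763 CPM, of which *Reln* alone held 443 CPM, against 11.6 to 150 CPM elsewhere. The mean log2(CPM + 1) over the list was 3.04 in G and 3.02 to 3.70 in the other cultures, so the list as a whole was not raised. *Gad1* and *Gad2* were low in G, at 4.28 and 4.22 CPM against 25.3 to 79.1 and 10.2 to 31.8 CPM. *Nr2f2* stood at 36.2 CPM against 1.58 to 5.01 CPM, and it and *Reln* were chosen after their values were seen. *Sst*, *Vip* and *Cck* were at their lowest in G among the untreated cultures, while *Npy* and *Gal* were at their highest.

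Over the 11 cultures without G, log2(CPM + 1) of *Npy* and *Gal* had a Pearson correlation of 0.92, of *Npy* and *Cort* 0.90, of *Crh* and *Cort* 0.87 and of *Vip* and *Pthlh* 0.81. *Vip* and *Gal* had -0.74, and *Sst* and *Cort*, the related genes, -0.62. These are descriptions over cultures that share letter sets. With G included, *Npy* and *Cort* came to 0.30 and *Npy* and *Gal* to 0.94. The genes most like each peptide gene over the same 11 cultures were *Hs3st5* and *Stk40* for *Gal* (0.99 and 0.98), *Nap1l2* and *Trim54* for *Vip* (0.97 each), *Zfp523* and *Bex1* for *Npy* (0.97 each), *Glo1* and *Srd5a1* for *Pthlh* (0.96 and 0.94), and *Rn5-8s* and *Tdp1* for *Nts* (0.96 and 0.91). For *Crh* they were *Tacr3*, the neurokinin B receptor, and *Ccnf* (0.95 and 0.94). For *Sst* they were *Alkbh7* and *Pycrl* (0.94 each), for *Cort* *Stx4* and *Ache* (0.94 each), for *Tac1* *Pmvk* and *RGD1309104* (0.91 and 0.90), and for *Cck* *LOC691921* and *Lrrc56* (0.91 and 0.88). They are the highest values among all genes tested over 11 cultures, and such a choice gives high values by itself. With G included they ran from -0.57 (*LOC691921* with *Cck*) to 0.98 (*Trim54* with *Vip*), and *Bex1* with *Npy* came to -0.50.

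The low dose was compared with the untreated condition to see whether the lower fentanyl concentration moved peptide transcripts. None of the 10 genes was called, where a call needed a log2 fold change beyond 0.5 up or down together with a Benjamini-Hochberg p under 0.05 in edgeR's quasi-likelihood test, and 0.0% of all 12271 genes were called. At an unadjusted p under 0.05 there were 0 of the 10 genes and 0.742% of all genes, and DESeq2 called 0 genes. The fitted log2 fold change was above 0 for 8 of the 10 and below 0 for *Npy* and *Gal*, with 46.6% of all genes below 0, and the median was 0.53 for the 10 genes and 0.01 for all genes. The largest values were *Pthlh* at 1.0 ± 0.70 (SE), *Tac1* at 0.98 ± 0.57 and *Nts* at 0.96 ± 0.55, each with an edgeR adjusted p of 1.0. Each of these depended on 1 culture, since *Pthlh* came to 0.30 without H, *Tac1* to 0.32 without Q and *Nts* to 0.31 without B. Without G, *Vip* came to 0.19 from 0.90 and *Npy* to 0.26 from -0.31. No member had 4 low dose values all above or all below the 4 untreated ones, where 0.196% of all genes lay wholly above and 0.212% wholly below. *Tac1* was higher at the low dose in all 4 letter sets, as were 4.06% of all genes, by 0.19 to 0.77 on the log2(CPM + 1) scale. In the 3 sets other than G-H-I, *Tac1* and *Gal* were higher at the low dose in each, beside 13.9% of all genes.

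The high dose was compared with the untreated condition to see what the higher concentration did. In the edgeR test 0 of the 10 genes and 0.0% of all genes were called, and at an unadjusted p under 0.05 there were 0 of the 10 and 1.19% of all genes. DESeq2 called 0 of the 10 and 3 of all genes. *Npy*, *Crh*, *Cort* and *Gal* had log2 fold changes below 0, beside 49.2% of all genes, and the median of the 10 was 0.16 against 0.00 for all genes. The values ran from -1.60 ± 1.17 (SE) for *Cort* and -1.52 ± 1.38 for *Crh* to 0.67 ± 0.50 for *Sst* and 1.11 ± 1.24 for *Vip*, each with an edgeR adjusted p of 1.0. Both upper values moved with single untreated cultures. *Sst* came to 1.94 without A (unadjusted p = 0.00154, adjusted p = 0.751 by edgeR) and *Vip* to 2.72 without M and 0.29 without G. No member lay wholly above (0.359% of all genes) or wholly below (0.326%) the untreated cultures. In the 3 sets other than G-H-I, *Cck* and *Cort* were lower at the high dose in each, with differences of -0.19 to -0.64 and of -0.15 to -1.27 in log2(CPM + 1), where 14.5% of all genes were. These 2 comparisons share the untreated cultures, and leaving out G turned the direction of *Cck* in both, to -0.07 at the low dose and -0.42 at the high dose, and that of *Gal*, to 0.56 and 0.50. At the high dose, leaving out G also brought *Npy* from -0.92 to -0.21, *Crh* from -1.52 to -0.43 and *Nts* from 0.14 to -0.07. Without untreated culture P, the fitted change of *Crh* at the high dose turned from -1.52 to 1.84 and that of *Cort* from -1.60 to 0.37. With 4 RUVs factors the errors of *Sst* and *Cort* were smaller, and *Sst* was at 0.80 (unadjusted p = 0.0102, adjusted p = 0.266 by edgeR) and *Cort* at -1.47 (unadjusted p = 0.0434, adjusted p = 0.441 by edgeR) at the high dose against untreated.

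**Figure D3:**
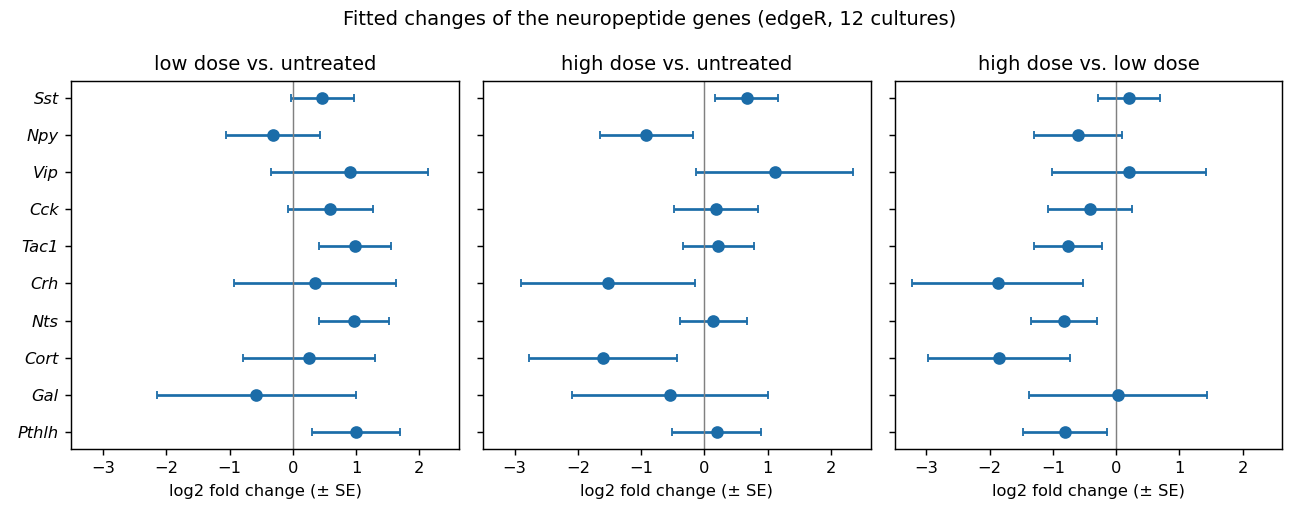
Fitted log2 fold change (point) and its SE (bar) of the 10 genes in the 3 comparisons of the edgeR fit to all 12 cultures, on one horizontal scale. Most bars reach or cross 0, none of the changes passed the test, and in the right panel 7 of the 10 points lie below 0.

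The high dose was then set against the low dose, the comparison in which culture G does not enter directly. Again 0 of the 10 genes and 0.0% of all genes were called by edgeR, and 0 of the 10 and 1.17% of all genes had an unadjusted p under 0.05, with 0.595% of all genes lower at that p. DESeq2 called 0 of the 10 and 1 of all genes. By fitted change, 7 of the 10 genes (*Npy*, *Cck*, *Tac1*, *Crh*, *Nts*, *Cort* and *Pthlh*) were below 0, beside 52.4% of all genes, and the median was -0.68 for the 10 against -0.01 for all genes. *Crh* was at -1.88 ± 1.35 (SE) and *Cort* at -1.85 ± 1.12, *Nts* at -0.82 ± 0.52, *Pthlh* at -0.81 ± 0.67, *Tac1* at -0.76 ± 0.54 and *Npy* at -0.60 ± 0.70. The edgeR adjusted p of each was 1.0. Without 1 low dose culture, *Pthlh* came to -0.08 (without H), *Nts* to -0.14 (without B), *Tac1* to -0.11 (without Q) and *Npy* to -0.0034 (without Q). *Sst*, at 0.20 ± 0.49, *Vip*, at 0.21 ± 1.22, and *Gal*, at 0.03 ± 1.40, had changes well inside their errors. No member lay wholly above (0.668% of all genes) or wholly below (0.522%) the low dose cultures.

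Within the letter sets, the high minus low dose difference in log2(CPM + 1) was below 0 in all 4 sets for *Npy*, *Crh*, *Nts* and *Pthlh*, beside 11.1% of all genes. For *Npy* it was -0.19, -0.84, -0.43 and -0.55 in the sets that start with A, G, M and P, and for *Crh* -0.12, -0.41, -1.10 and -1.51. The *Crh* difference in A-B-C rested on 2 and 1 counts. For *Nts* it was -1.07, -0.09, -0.13 and -0.12, so that culture B, with its high value, set the size. For *Pthlh* it was -0.01, -0.78, -0.13 and -0.39, the first from 7 counts in B and 9 in C and the lowest in the set of culture H. *Cort* was at 0.08, -1.01, -0.99 and -0.54 in the same order, with only 0 and 1 counts behind the first value. *Cck* was at 0.10, -0.33, -0.44 and -0.61, so that A-B-C was again the set without a lower value at the high dose. *Tac1* was at -0.02, 0.09 and -0.12 in the first 3 sets and at -1.29 in P-Q-R. *Sst* was slightly lower in A-B-C, at -0.09, and at 0.13 to 0.34 in the other sets.

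When the letter sets were fitted as a block and G was left out, the errors were smaller, while the fitted changes of *Npy*, *Cort*, *Crh*, *Cck* and *Pthlh* between the high and the low dose stayed near the values above. *Npy* was at -0.55 ± 0.13 (SE, unadjusted p = 0.00196, adjusted p = 0.141 by edgeR) and *Cort* at -1.86 ± 0.52 (unadjusted p = 0.00549, adjusted p = 0.178). *Crh* was at -1.80 (adjusted p = 0.270), *Cck* at -0.33 (adjusted p = 0.295) and *Pthlh* at -0.72 (adjusted p = 0.336). These 5 of the 10 genes were lower at an unadjusted p under 0.05, beside 5.85% of all genes, and none of them was called. With 4 RUVs factors in place of the block and G kept, *Npy*, *Crh*, *Cort* and *Pthlh* were lower at that p, beside 7.58% of all genes, with edgeR adjusted p-values of 0.113 (*Npy*) to 0.176 (*Crh*). In the same block without G, *Npy* (-0.40), *Cck* (-0.35) and *Cort* (-2.14) were lower at the high dose than untreated at an unadjusted p under 0.05, beside 3.67% of all genes, with edgeR adjusted p-values of 0.412, 0.459 and 0.269. Both models raised the share of genes at an unadjusted p under 0.05 across the whole table, and neither called a member. With the block and G kept, *Npy* was at -0.46 and *Cort* at -1.99, each with an edgeR adjusted p of 1.0.

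**Figure D4:**
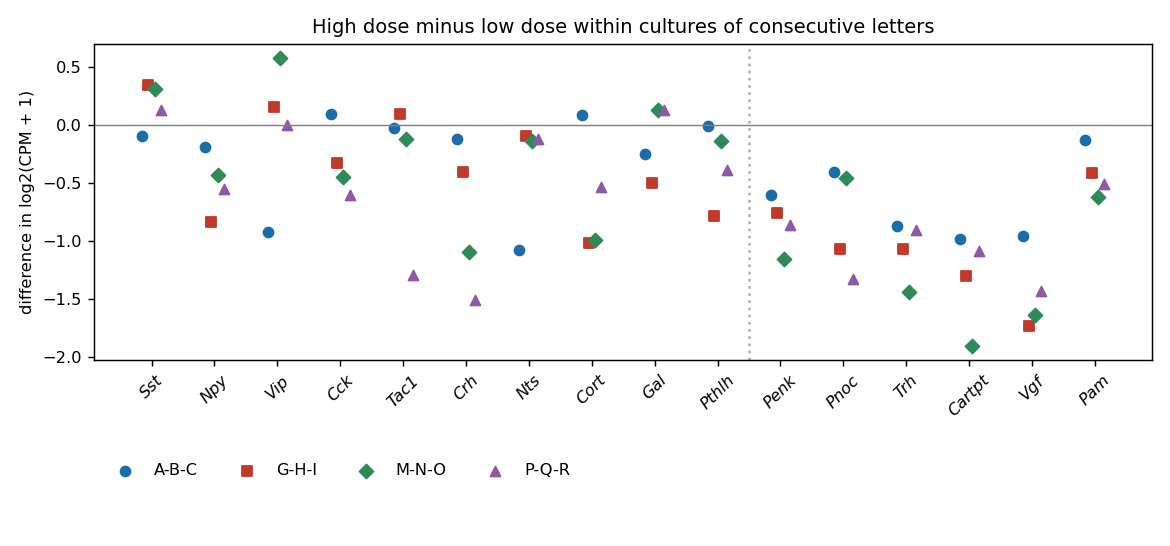
Difference of the high dose minus the low dose culture of each letter set, in log2(CPM + 1), for the 10 genes (left of the dotted line) and for 6 other precursor and vesicle genes (right of it). All 4 points lie below 0 for *Npy*, *Crh*, *Nts* and *Pthlh* and for each of the 6 other genes, which were picked by their unadjusted p in this same comparison.

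Of 14 neuron markers, 3 had a log2 fold change below 0 in high against low dose, with a median of 0.12, and the median was 0.12 for 22 GABAergic interneuron genes (8 below 0) and 0.23 for 10 glutamatergic neuron genes (2 below 0). *Rbfox3* differed by -0.11, 0.12, 0.25 and 0.45 in log2(CPM + 1) in the same order of sets, and *Gad1*, the GABA-synthesizing enzyme, by -0.33, -0.24, 0.15 and -0.24. Astrocyte markers had a median of -0.24 with 11 of 11 below 0, fibroblast and mural markers -0.71 with 9 of 10 below 0, and 12 microglia, 12 oligodendrocyte, 8 OPC and 5 endothelial markers had medians of -0.03, -0.02, 0.11 and 0.12. The fibroblast and mural markers summed to 4704 CPM in low dose culture N, against 543 to 1179 CPM in B, H and Q. At the high dose they summed to 497 to 1221 CPM, so culture N weighed heavily in their change. No gene of these lists was called by edgeR in this fit to all 12 cultures with 1 RUVs factor. At an unadjusted p under 0.05, 2 markers were lower, *Slc17a6*, another vesicular glutamate transporter, at -1.09 (unadjusted p = 0.00216, adjusted p = 1.0) and *Gap43*, a growth cone protein, at -0.37 (unadjusted p = 0.0298, adjusted p = 1.0). The 20 activity-regulated genes had a median of -0.22 in this fit, with 11 below 0 and none at that p. With 4 RUVs factors, edgeR did call genes of the cell type lists in high against low dose. *Map2* (0.56, adjusted p = 0.0368), *Tbr1* (0.57, adjusted p = 0.0396), *Reln* (0.53, adjusted p = 0.00899) and *Gpr17* (0.63, adjusted p = 0.0472) were higher, and *Slc17a6* (-1.06, adjusted p = 0.0396) was lower. Of activity-regulated genes, the same model called *Bdnf* (-1.503, adjusted p = 0.000848) and *Nptx2* (-1.24, adjusted p = 0.0177) lower. *Bdnf* was also called in the block without G (-1.63, adjusted p = 0.0119 by edgeR). At the high dose against untreated, *Bdnf* was called with 4 RUVs factors (-1.07, adjusted p = 0.0162 by edgeR). Against the untreated cultures, which include G, the neuron markers had medians of 0.33 (low dose) and 0.54 (high dose). Their score, the mean log2(CPM + 1) over the 14 genes, was 4.55 in G and 7.74 to 8.27 in the other untreated cultures, 7.72 to 8.18 at the low dose and 7.95 to 8.19 at the high dose, so the conditions overlapped without G. *Rbfox3* differed by -0.19, -0.29 and 0.03 in log2(CPM + 1) between the low dose and the untreated culture in the sets that start with A, M and P.

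On the receiving side, 20 of 26 listed receptors and binding proteins of these peptides could be tested, and *Sstr5*, *Npy2r*, *Cckar*, *Tacr2*, *Galr1* and *Galr3* had too few counts. None was called or at an unadjusted p under 0.05 in any of the 3 comparisons of the edgeR fit, and the medians were 0.50 and 0.13 against untreated and -0.21 for high against low dose. *Crhbp*, a secreted protein that binds and sequesters corticotropin-releasing hormone, had a change of -1.31 ± 0.66 (SE, unadjusted p = 0.0733, adjusted p = 1.0) and was lower at the high dose in all 4 sets, with differences of -0.79 to -1.22 in log2(CPM + 1). *Vipr1*, a receptor for vasoactive intestinal peptide, was at -0.52 ± 0.25 (unadjusted p = 0.0640, adjusted p = 1.0), and *Cckbr*, the main cortical receptor for cholecystokinin, at -1.14 ± 0.93 (unadjusted p = 0.248, adjusted p = 1.0), and both were lower in all 4 sets. Of all genes, 11.1% were lower at the high dose in all 4 sets.

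Under the block without G, *Cckbr* fell by 1.01 (adjusted p = 0.0186) and *Crhbp* fell by 1.31 (adjusted p = 0.0214) in the edgeR test of high against low dose, and both were among the 0.113% of all genes called there. With 4 RUVs factors, *Cckbr* (-0.90, adjusted p = 0.00899), *Crhbp* (-1.26, adjusted p = 0.00895) and *Tacr3* (-1.49, adjusted p = 0.0244) were called, beside 0.921% of all genes. With the block and G kept, *Cckbr* was at -0.97 and *Crhbp* at -1.27, each with an edgeR adjusted p of 1.0, so these calls rest on G being left out or on the added factors. *Cckbr* was also listed by the study, from these cultures, among genes downregulated in the high dose condition. In CPM, *Crhbp* stood at 4.31 to 11.4 at the low dose and 1.30 to 4.58 at the high dose, and *Cckbr* at 3.85 to 40.8 and 2.43 to 22.2, so the 2 doses overlapped for both. Of the other tested partners, the neuropeptide Y receptor *Npy1r* had a change of 1.06 ± 0.52 (SE, unadjusted p = 0.0682, adjusted p = 1.0) against untreated at the high dose. It stood at 0.32 CPM in G, at 9.23 to 14.3 CPM in the other untreated cultures and at 11.2 to 20.2 CPM at the high dose, and it was 0.03 to 0.68 higher at the high than at the low dose in the 4 sets on the log2(CPM + 1) scale. The somatostatin receptors *Sstr1* to *Sstr4* had log2 fold changes of 0.36, -0.39, 0.01 and 0.32 between the doses, and *Crhr1*, which corticotropin-releasing hormone activates, -0.26, each with an edgeR adjusted p of 1.0. *Sort1* and *Ntsr2*, which bind neurotensin, were at 0.14 and -0.27, *Pth1r* at -0.52 and *Galr2*, a galanin receptor, at 0.30, with the same adjusted p. The remaining tested partners were between -1.94 (*Tacr3*) and 0.21 (*Npy5r*).

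Of 14 tested genes for precursor processing and dense-core vesicles, 0 were called and 2 were lower at an unadjusted p under 0.05 in high against low dose. *Pam*, the enzyme that amidates the ends of many neuropeptides, held 467 to 603 CPM at the low dose and 382 to 427 CPM at the high dose, with no overlap, and its change was -0.42 ± 0.11 (SE, unadjusted p = 0.00289, adjusted p = 1.0 by edgeR). Of all genes, 0.522% lay wholly lower, and *Pam* was picked by its unadjusted p in this same comparison. *Vgf*, an activity-regulated precursor stored in dense-core vesicles, was at 107, 483, 542 and 432 CPM in B, H, N and Q and at 55.0, 145, 173 and 160 CPM in C, I, O and R, a change of -1.55 ± 0.49 (unadjusted p = 0.0101, adjusted p = 1.0 by edgeR). In the block without G, *Vgf* fell by 1.48 (adjusted p = 0.0419) and *Pam* was at -0.42 (adjusted p = 0.110), and with G kept the edgeR adjusted p of both was 1.0. With 4 RUVs factors *Vgf* fell by 1.48 (adjusted p = 0.0173 by edgeR). *Scg2*, a precursor of dense-core vesicles chosen after its values were seen, fell by 1.20 in the block without G (adjusted p = 0.00710) and by 1.11 with 4 RUVs factors (adjusted p = 0.00432 by edgeR). The median over the 14 genes was -0.20, with 8 below 0.

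Of 23 other neuropeptide precursors listed, 10 could be tested, 8 were below 0 with a median of -0.47, and 3 were lower at an unadjusted p under 0.05. These were *Trh*, the thyrotropin-releasing hormone precursor, at -1.24 ± 0.43 (SE, unadjusted p = 0.0163), *Cartpt*, which encodes the CART peptide, at -1.63 ± 0.62 (unadjusted p = 0.0257), and *Adm*, adrenomedullin, at -0.22 ± 0.10 (unadjusted p = 0.0421), each with an edgeR adjusted p of 1.0. *Trh* held 6.07 to 9.08 CPM at the low dose and 1.61 to 4.50 CPM at the high dose, with no overlap. Of all genes, 0.522% lay wholly lower. All 4 opioid peptide precursors were below 0, with a median of -1.0, and *Penk*, which encodes the enkephalins, was at -0.91 ± 0.23 (unadjusted p = 0.00277) and *Pnoc*, the nociceptin precursor, at -1.10 ± 0.35 (unadjusted p = 0.0104), each with an edgeR adjusted p of 1.0. *Pnoc* held 3.16 to 8.87 CPM at the low dose and 2.13 to 2.94 CPM at the high dose, and *Penk* 19.3 to 34.6 CPM and 10.2 to 20.1 CPM. *Penk*, *Pnoc*, *Trh* and *Cartpt* were lower in all 4 letter sets, beside 11.1% of all genes. They were picked by their unadjusted p in this same comparison, so their direction within the sets is not separate evidence. With 4 RUVs factors *Penk* fell by 0.94 (adjusted p = 0.0311), *Pnoc* fell by 1.04 (adjusted p = 0.0255) and *Trh* fell by 1.25 (adjusted p = 0.0198 by edgeR). The same model also called 3 precursors chosen after their values were seen, namely *Pdyn*, the dynorphin precursor, at -1.66 (adjusted p = 0.0344), *Nppc* at -1.31 (adjusted p = 0.0341) and *Adcyap1*, which encodes PACAP, at -1.36 (adjusted p = 0.000848 by edgeR). The study, too, listed *Nppc* among genes downregulated in the high dose condition. In the block without G, *Adcyap1* fell by 1.42 (adjusted p = 0.00330), while *Trh* (adjusted p = 0.0595), *Penk* (0.0693), *Pnoc* (0.0876) and *Cartpt* (0.0876) were not called by edgeR. With the block and G kept, *Penk*, *Pnoc*, *Trh* and *Cartpt* had an edgeR adjusted p of 1.0. Against untreated, the medians of the other precursors were 0.43 at the low and -0.19 at the high dose, and those of the opioid precursors 0.44 and -0.49, with no gene called or at an unadjusted p under 0.05 in the edgeR fit to all 12 cultures. Of the genes just named, *Adcyap1* fell by 0.81 at the high dose against untreated with 4 RUVs factors (adjusted p = 0.0302) and by 1.07 in the block without G (adjusted p = 0.0377 by edgeR).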

How the data were processed

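Libraries were made from poly(A)-selected RNA of 12 cultures. The authors mapped reads with STAR (build rn6) and summed them by gene in featureCounts, and the deposited values are those counts, with no normalization. The annotation and the strand setting are not given in the sources used here, so antisense or overlapping reads cannot be told apart. Samples were grouped by the dose in their labels.

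From the counts, TMM scaling, filterByExpr and the quasi-likelihood test were run with edgeR 4.0.16 (limma 3.58.1, R 4.3.3), with the 3 conditions and 1 RUVs factor in the model of all 12 cultures, Benjamini-Hochberg adjustment over 12271 genes, and calls where the log2 fold change passed 0.5 and its adjusted p was under 0.05. The study names RUVseq without its procedure or number of factors, so the RUVs formula was written anew. The factor was 0.93 in G and -0.22 to 0.15 in the other cultures, so it mainly set G apart. Leaving out G therefore also changed what the factor held. Standard errors were derived from the test statistics. CPM used TMM library sizes, and a count of 3 was taken as the limit of detection, which covers counting error only. The procedure was tested on simulated counts without differences between letter sets and without a culture like G. That test therefore cannot tell what size of change would be called in these data. Alternatives were no factor, 2 or 4 factors, a block by letter sets with and without G, size factors of DESeq2, DESeq2 1.42.0, the likelihood ratio test, no filter, only the 8 cultures compared, adjusted p alone and each culture left out in turn.

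The members and lists (receptors, processing genes, other and opioid precursors, neuron classes, activity-regulated genes and cell type markers) were chosen with earlier results of these data known. Besides the members, the genes named were list genes at an unadjusted p under 0.05 in high against low dose (up to 6 per list), tested receptors and binding proteins, and the 2 most correlated genes per member. All 10 member symbols matched the reference symbols. No sequence or position is printed, since no sequence of build rn6 was used here.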

Additional observations from a re-analysis of the deposited data

Results flagged for a closer look

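In 9 of the 30 groups of 4 cultures (10 genes in 3 conditions), the highest culture was farther from the next than the gap test for extreme values allows at its 95% level, which chance alone does in about 1 of 20 groups. Each flag is a single culture, and the groups are not independent, since the same cultures recur. Untreated culture G was at 261 CPM of *Npy*, against 13.1 to 52.0 CPM in A, M and P. Untreated culture P was at 7.57 CPM of *Crh* and at 3.41 CPM of *Cort*, against at most 0.55 CPM in the other untreated cultures for both. Low dose culture B was at 16.7 CPM of *Sst*, against 7.31 to 8.28 CPM, and at 2.85 CPM of *Nts*, against 0.52 to 0.86 CPM. Low dose culture Q was at 2.96 CPM of *Tac1*, against 0.62 to 0.93 CPM, and at 9.49 CPM of *Gal*, against 0.54 to 1.54 CPM. High dose culture R was at 10.5 CPM of *Gal*, against 0.30 to 1.10 CPM, and high dose culture I at 1.05 CPM of *Tac1*, against 0.58 to 0.62 CPM. Culture P, of the same letter set as Q and R, held 8.90 CPM of *Gal*, below G among the untreated cultures.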

How the results depend on the processing

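No member was called in any comparison under any of the 23 alternatives, and the median change of the 10 genes in high against low dose stayed below 0 in each refit, from -0.84 (without N) to -0.36 (without Q). Calls over all genes were 0 in every comparison except high against untreated and high against low dose under 2 factors (1 and 1), 4 factors (39 and 113), the replicate block without G (15 and 14), DESeq2 (3 and 1) and the likelihood ratio test (2 and 0). The replicate block by letter sets with G called 0 genes. With only the 8 cultures compared, 7 members were tested in high against untreated. The directions that turned were of changes that passed no test, mostly against the untreated cultures, and the cause was not tested. Log2 fold changes that turned in low dose against untreated were *Gal* under 2 factors (0.041), *Npy* (0.14) and *Gal* (0.42) under 4, and *Cck* (-0.021), *Npy* (0.14), *Gal* (0.39) and *Cort* (-0.28) under the block without G. In high dose against untreated they were *Cck* (-0.00047), *Pthlh* (-0.0024) and the median (-0.0014) without a factor, the median (-0.066), *Cck* (-0.18), *Gal* (0.56) and *Pthlh* (-0.43) under 4 factors, and the median (-0.16), *Cck* (-0.35), *Vip* (-0.018), *Nts* (-0.0078), *Tac1* (-0.014), *Gal* (0.20) and *Pthlh* (-0.29) under the block without G. In high against low dose they were *Vip* under 4 factors (-0.14), the block (-0.056) and the block without G (-0.039), and *Gal* under 2 factors (-0.050), the block (-0.085), the block without G (-0.19) and 8 cultures (-0.075). Leaving out each culture in turn, low dose against untreated ranged from -0.18 to 1.52 for *Cck*, -0.10 to 2.07 for *Cort*, -0.28 to 3.62 for *Crh*, -2.16 to 1.96 for *Gal* and -1.20 to 0.39 for *Npy*. High dose against untreated ranged from -0.42 to 1.11 for *Cck*, -2.53 to 0.37 for *Cort*, -1.98 to 1.84 for *Crh*, -2.66 to 1.96 for *Gal*, -0.077 to 0.56 for *Nts*, -0.15 to 0.83 for *Pthlh*, -0.063 to 0.95 for *Tac1* and -0.10 to 0.46 for the median. High against low dose ranged from -0.82 to 0.28 (without N) for *Cck*, -2.34 (without R) to 1.79 for *Gal* and -0.28 to 0.63 for *Vip*. Depth limits *Cort* and *Crh*, which were at or below 3 counts in 5 and 4 cultures.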
